A study of Arabidopsis thaliana with 4 samples.

Results

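PnsB4 (AT1G18730, also named NDF6) is a nuclear gene for a subunit of the chloroplast NDH complex. Its members here are the 29 alternative splicing events listed under that gene, of 14133 events in 5268 genes. Only 2 genes have more events, and the median gene has 2. The gene was chosen for its number of events and for how its levels compare between ecotypes, so these values are a description. The events come from polyadenylated RNA of Arabidopsis thaliana seedlings, 14 days old, grown on plates at 22 °C in days of 8 h light and 16 h dark. Landsberg erecta (Ler), with 2 samples, was set against Columbia (Col), with 2 samples. Both are inbred strains, and the labels give neither a transgene nor a treatment. The source field gives first leaf but the extraction text speaks of shoots, and a table of splicing levels cannot check the tissue by its markers. Separate plantings are not mentioned for the samples. The authors' deposited table gives 1 pooled level per ecotype, so no level below has an SD or an interval.

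The NDH complex of the thylakoid membrane takes electrons from ferredoxin and passes them to plastoquinone, and so drives cyclic electron flow around photosystem I. Its membrane and core subunits are encoded in the chloroplast, and further subunits are encoded in the nucleus. PnsB4 belongs to subcomplex B, one of the parts built from nuclear-encoded subunits. An intron is cut out between a donor, or 5' splice site, and an acceptor, or 3' splice site, and a choice among neighbouring sites gives mRNAs that differ by a few bases.

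PnsB4 lies on the plus strand of chromosome 1, at 6460403 to 6462344 in TAIR10. RefSeq annotates 5 forms, with 4 to 7 exons. The events name 13 different introns, made from 6 donors and 10 acceptors. All 13 begin with GT and end with AG in the Col reference, as do 98.3% of 136308 annotated introns. Of the 13, 7 are annotated, and of the 8 annotated introns of the gene 7 appear in events; the intron between the fourth and the fifth exon of the 175-residue form appears in none. A gene for an antisense long noncoding RNA, AT1G18735, covers 6461367 to 6462327. Of the 29 events, 9 lie wholly in this span. Of these, 6 compare spliced junctions, whose introns read GT to AG on the strand of PnsB4, and 3 are retained introns, whose unspliced reads cannot be told apart from antisense reads without known strandedness.

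The events turn on 4 stretches where neighbouring splice sites compete, shown here because the closely spaced sites that the events choose between can be read off them. They read as follows in the Col reference (TAIR10, plus strand, from RefSeq's copy), with the AG of each acceptor or the GT of each donor in capitals.
First intron acceptors, chr1:6460752-6460781: tgtattgtgttgtAGccgaagcAGaattca
Second intron acceptors, chr1:6460885-6460914: tgaaaaattAGaAGaatgttaatgagaAGa
Donors of the third intron, chr1:6461058-6461087: gctatcaagaatGTttGTaagttaaacact
Acceptors within the last intron, chr1:6461830-6461859: tcaaacgttaacAGatctgatggtAGgtaa
In the second stretch the first pair of AGs stands 3 bp apart, in the arrangement NAGNAG. Read on the strand of their gene, 6.75% of 131983 annotated acceptors hold this motif as its first or second AG. In the third stretch the donors are 4 bp apart, and in the fourth the acceptors are 12 bp apart. Of the 20 bases before the AG, 9 were pyrimidines (C or T) at the first acceptor of the second intron, 7 at the one 3 bp on and 6 at the one 18 bp on, against 10 at the acceptor of the third intron.

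**Figure D1:**
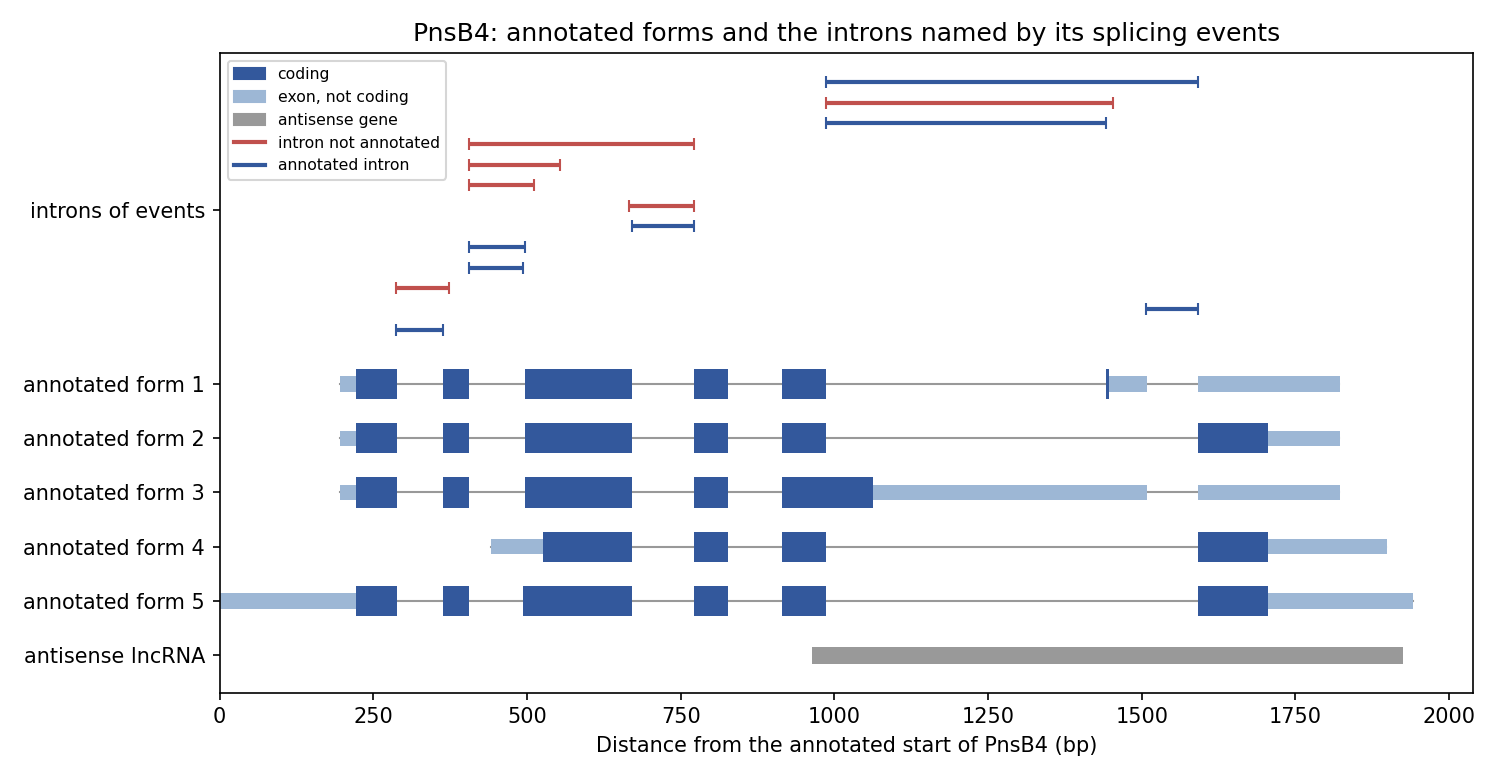
Map of PnsB4 by distance from its annotated start in bp: the 5 annotated forms with coding parts tall, the antisense gene, and the 13 introns named by events as bars above, red where the intron is not annotated (6) and blue where it is (7). The events cluster at the first intron, around the third exon and in the last intron.

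Grouped by shared splice sites, the 29 events form 3 groups. The first group is 1 event at the first intron. The second holds 19 events around the third exon: 6 alternative 3' sites, 3 alternative 5' sites, 6 skipped exons and 4 retained introns. The authors label 2 of these 6 as skipping of an exon and 4 as skipping of an intron, and all are called skipped exons here. The third holds 9 events of the last intron: 3 alternative 3' sites, 1 alternative 5' site, 2 skipped exons (1 under each of these labels) and 3 retained introns. Events of a group rest on the same junctions and are not independent. One junction, which joins the second exon to the fourth and so skips the third, enters 12 of the 29 events.

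The inclusion level is the share given to the form with more exon: the longer exon end, the included exon or the retained intron. Because each level sets junctions against each other, levels that share a site can be combined into the share of each junction at that site. The routes through different events nearly closed for the frequent acceptors of the second intron. The first acceptor of the second intron was used 2.73 times as often as the second in Ler and 2.84 times in Col, and the route through the skipping junction gave the same values. Junctions into and out of the third exon matched less closely in Ler. Per skipping junction, those out of its annotated end came to 179 in Ler and 150 in Col. Those into the first and second acceptors together came to 157 in Ler and 147 in Col. For rare junctions the routes also closed less well. The first acceptor exceeded the one 18 bp on by 391 times in Ler and 339 times in Col directly, but by 489 times in Ler and 387 times in Col through the skipping junction. These shares cover only junctions listed in events of the site.

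At the first intron, nearly all junctions of both ecotypes used the annotated acceptor. Its level against an acceptor 9 bp downstream, which is not annotated, was 98.6% in Ler and 97.4% in Col. The downstream site thus took 1.40% in Ler and 2.61% in Col, and the level of the annotated site was 1.21 points higher in Ler. The authors' deposited table gives it q = 0.0216, the only PnsB4 value under 0.05 (1 of 29, against 14.3% of all events), and no mark. The intron is 82 bp long in Ler and 76 bp in Col by the coordinates listed; whether this length bears on the level was not tested. Use of the downstream acceptor removes 3 residues from the 175-residue main protein and keeps the frame.

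At the second intron a pair of acceptors shared nearly all junctions in both ecotypes. Of the junctions from its donor at 6460808, the acceptor at 6460896 took 72.6% in Ler and 73.3% in Col. The acceptor 3 bp on, at 6460899, took 26.6% in Ler and 25.8% in Col. Both are annotated, the first in 1 form and the other in 3. The listed level of this 3' site event was 73.2% in Ler and 73.9% in Col, with q = 0.823 in the authors' deposited table. The site 3 bp on removes 1 residue, giving 174 in place of 175. The table has 518 acceptor pairs 3 bp apart, with a median absolute difference of 3.87 points and marks on 12.9% of them in the authors' deposited table. Of these pairs, 15.3% differed by as little as the 0.756 points of PnsB4 or less.

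A further acceptor 18 bp downstream, at 6460914, was rare in both ecotypes, with 0.186% of the donor's junctions in Ler and 0.216% in Col. It keeps the frame and removes 6 residues. An acceptor 60 bp downstream, at 6460956, would remove 20 residues in frame. It appears only as the end of a retention interval, listed at 99.6% in both ecotypes, and its share cannot be derived. The second intron is 88 bp long in Ler and 87 bp in Col, by the acceptor at 6460896. The 17 events that start at its donor therefore have intervals 1 bp longer in Ler.

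The third exon was included almost always. Its 178 bp form had a listed inclusion level of 99.7% in Ler and 99.6% in Col, and the 175 bp form that starts 3 bp later had 99.5% in both. The level of an exon here sums both junctions of the included form: the ratio of level to complement was 294 in Ler and 259 in Col, equal to the sum over the incoming and outgoing junctions. With these averaged instead, inclusion of the 178 bp exon was 99.3% in Ler and 99.2% in Col. At the donor, the skipping junction took 0.631% in Ler and 0.676% in Col. Skipping shifts the frame, and the protein then has 82 residues.

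Among the 12 events that contain the skipping junction, 11 were higher in Ler. They share that junction, whose share was lower in Ler at both of its ends. It took 0.631% in Ler and 0.676% in Col at the donor, and 0.554% in Ler and 0.660% in Col at the acceptor. Within Ler the donor and acceptor values differed by more than the ecotypes did at the donor. The sole exception among the 12 events set the acceptor at 6460914 against skipping, with 19.0% in Ler and 21.9% in Col. Exon forms that pair only rare ends gave middling levels. The 156 bp exon between the acceptor at 6460914 and the donor at 6461069 was listed at 43.3% in Ler and 34.2% in Col, and with the inclusion junctions averaged at 27.7% in Ler and 20.6% in Col. That level compares rare junctions with a rare skipping junction.

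At the third intron the annotated donor at 6461073 took 99.1% of the junctions to the acceptor at 6461174 in Ler and 99.2% in Col. A donor 4 bp upstream, at 6461069, took 0.326% in Ler and 0.185% in Col. Its use shifts the frame and gives 140 residues. It was involved in the 2 largest differences of the gene, which thus rest on a rare junction and may rest on few reads. Its retention interval was listed at 50.0% in Ler and 73.1% in Col, a difference of -23.1 points, and its 5' site event against skipping at 34.6% in Ler and 19.4% in Col, a difference of 15.3 points. The authors' deposited table gives q = 0.380 for the retention event and q = 0.533 for the 5' site event. In the event that sets both donors against each other, the main donor had 99.7% in Ler and 99.8% in Col, a difference of -0.141 points.

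In the last intron, of 604 bp in both ecotypes, the junction to the annotated acceptor at 6461994 took 99.3% of the donor's junctions in Ler and 99.2% in Col. An inner acceptor at 6461856 took 0.405% in Ler and 0.537% in Col, and one at 6461844 took 0.258% in Ler and 0.269% in Col. With the donor at 6461910 they bound cassette exons of 55 and 67 bp, of which the longer is annotated. The junction out of these exons took 0.554% in Ler and 0.747% in Col at the acceptor at 6461994. Listed exon levels were 0.956% in Ler and 1.28% in Col for the 55 bp exon, and 0.810% in Ler and 1.01% in Col for the 67 bp exon. With the inclusion junctions averaged they were 0.480% in Ler and 0.643% in Col for the 55 bp exon, and 0.407% in Ler and 0.509% in Col for the 67 bp exon. All 5 junction and exon levels of these exons against the full intron were lower in Ler, by 0.0110 to 0.322 points, with q values from 0.586 to 1 in the authors' deposited table. The 67 bp exon ends the protein at 139 residues, and the stop codon lies 61 nt before the last exon junction. With the 55 bp exon the protein has 170 residues and another end.

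**Figure D2:**
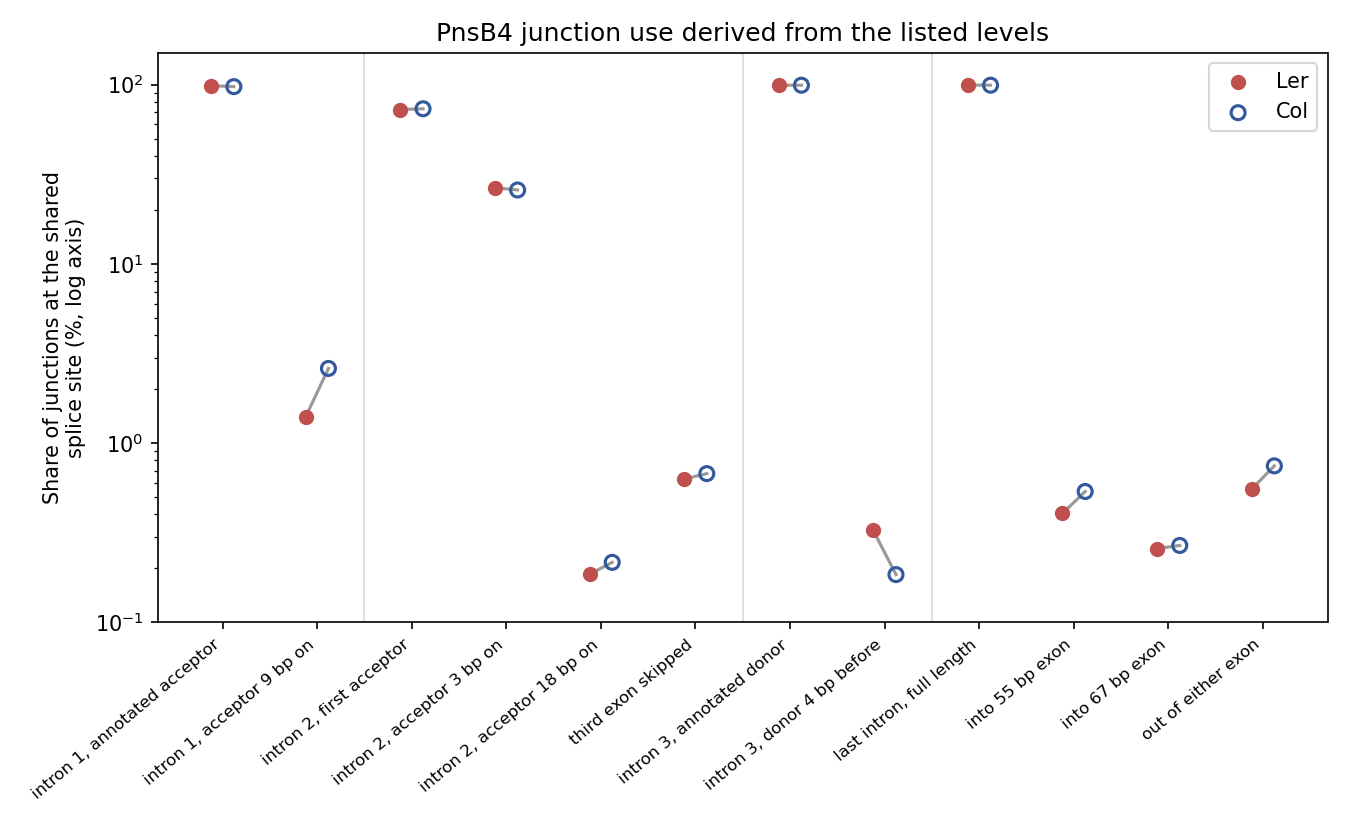
Share of the junctions at each shared splice site, in percent on a log axis, for Ler (filled) and Col (open), derived from the listed levels, 1 pooled value each. Main junctions sit above 70%, the acceptor 3 bp on near 26%, and every other site under 3% in both ecotypes.

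Retained introns were listed at middling to high levels in both ecotypes. The 7 retention levels ranged from 37.0 to 99.6% in Ler and from 30.6 to 99.6% in Col, and 6 were higher in Ler. The interval from the second exon to 6460914 was listed at 95.1% in Ler and 94.9% in Col, although its acceptor lies inside the third exon as annotated. The 365 bp interval across the third exon was at 37.0% in Ler and 30.6% in Col. The intervals from the last donor to the inner acceptors were at 86.2% in Ler and 80.4% in Col for 454 bp, and at 80.0% in Ler and 68.9% in Col for 466 bp. The 83 bp interval after the cassette exons was at 75.8% in Ler and 69.0% in Col. Each of these intervals is bounded by a junction with under 1% of the use at its site. Which reads a retention level is set against is not given in the sources, so a listed level cannot be read as the share of PnsB4 transcripts that keep the interval.

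Retention would change the protein. Keeping the second intron brings a stop codon after 41 residues, and keeping the third intron after 121. Neither is listed as retained between its annotated sites: the retention intervals there differ in an end or span the third exon. Keeping the last intron up to 6461910 gives 162 residues, and the annotated form of this kind, with the acceptor at 6460899, encodes 161. Its stop codon lies 446 nt before the last exon junction. Of the annotated forms, 4 start translation at 6460625, and 1 starts within what is the third exon of the others and encodes 128 residues.

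**Figure D3:**
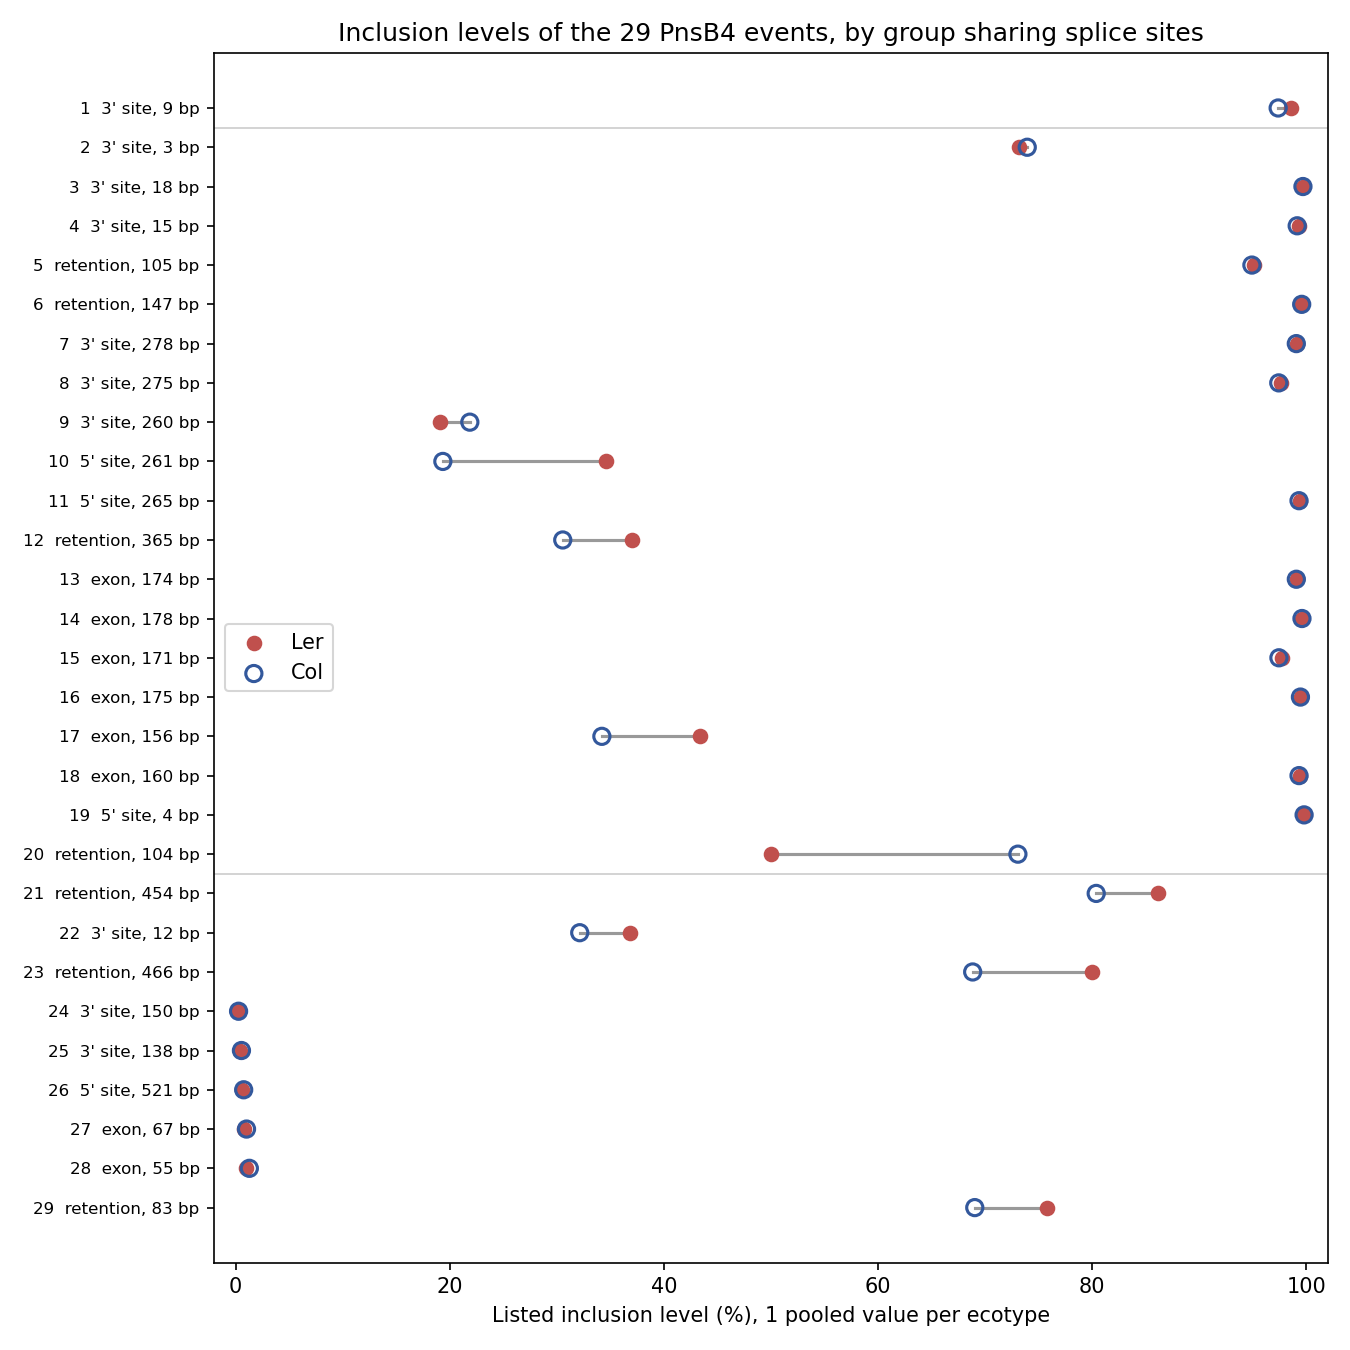
Listed inclusion level in percent of each of the 29 PnsB4 events, in the order of the 3 groups (grey lines), for Ler (filled) and Col (open), 1 pooled value each; bp gives the alternative segment. Levels of 18 events lie at 95% or more or at 5% or less in both ecotypes and nearly coincide, while 11 lie between and spread by up to 23.1 points.

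Between the ecotypes, 0 of the 29 events are marked as different in the authors' deposited table, in which 7.46% of all events are. All 1054 marks of that table stand on differences of at least 10 points, and 26 of the 29 PnsB4 events differ by less, so the count of 0 bears on 3 events only. With q under 0.05 and at least 10 points in the authors' deposited table the count was also 0, against 8.41% of all events. The median absolute difference was 0.209 points, against 3.78 points over all events. It was 1.21 points with 1 event kept per group of shared splice sites, and 0.322 points over the 11 events whose interval has the same length in both ecotypes. The first of these values depends on which event is kept, as the largest absolute differences in the groups were 1.21, 23.1 and 11.1 points. The low median went with the position of the levels: 18 of the 29 events (62.1%) were at least 95% or at most 5% in both ecotypes, against 20.8% of all events. The median absolute difference of such events was 0.119 points in PnsB4 and 0.594 points in the series. For the other 11 PnsB4 events it was 6.48 points, against 5.58 points for the other events of the series.

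A difference of at least 10 points was listed for 3 PnsB4 events (10.3%), against 23.8% of all events. They are the retention and 5' site events of the donor at 6461069 and the 466 bp interval listed as retained. The authors' deposited table gives them q from 0.380 to 0.533. Of all events that differ by at least 10 points, 31.3% are marked in the authors' deposited table, and of those that differ by at least 20 points, 42.8%. The level was higher in Ler in 20 PnsB4 events, against 48.4% of all events, but 11 of these 20 share the skipping junction. Among the 11 events with the same interval length in both ecotypes it was higher in Ler in 4 and lower in Ler in 7. Of these 7, 5 share the full-length junction of the last intron and differ by at most 0.322 points. The others use the donor at 6461069.

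**Figure D4:**
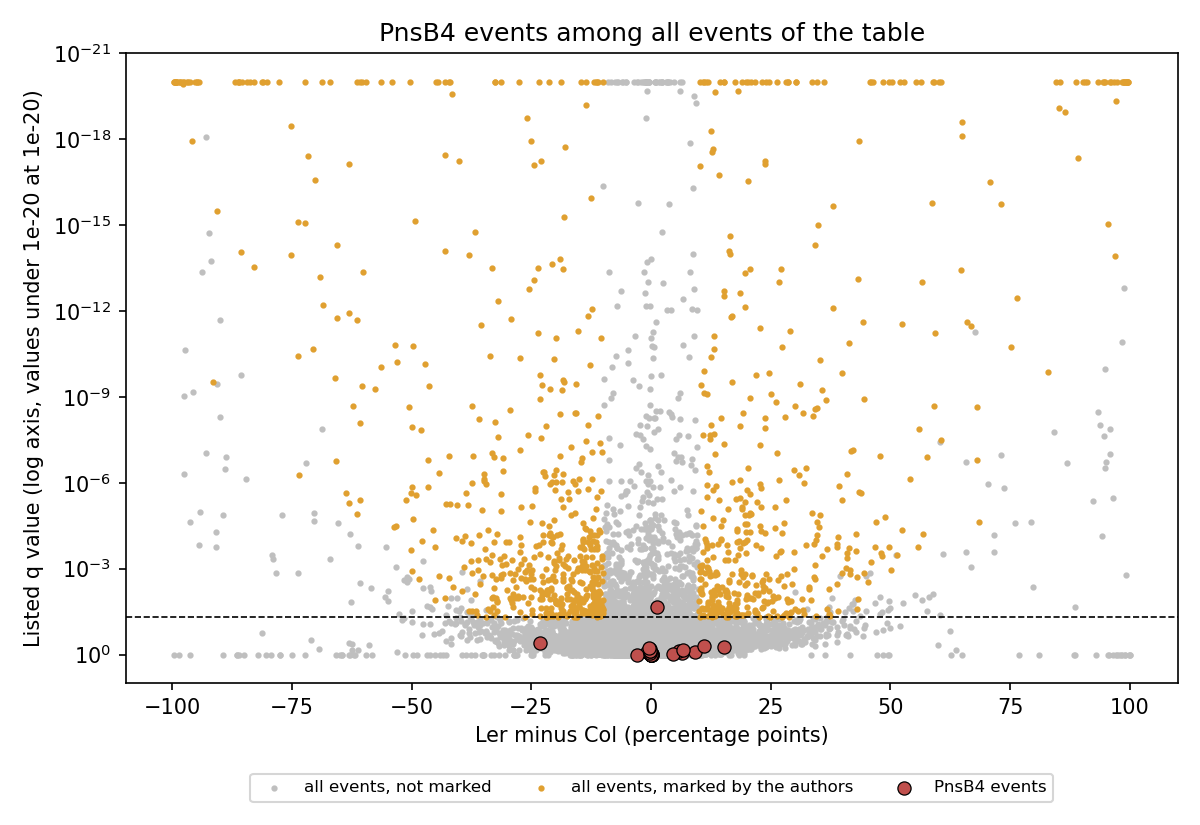
Listed q value (log axis, smaller upward) against Ler minus Col in percentage points for all 14133 events, grey where not marked and orange where marked by the authors, with PnsB4 events in red. The PnsB4 events lie near 0 points or below the dashed line at q = 0.05, and 1 event, at 1.21 points, lies above it.

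The genes nearest to PnsB4 in number of events had other mixes of event types. GRP7, an RNA-binding protein under clock control, has 31 events, DFD, a folate enzyme, has 27, and FNR2, a leaf ferredoxin-NADP reductase, has 24. Skipped exons made up 8 of the PnsB4 events, but 0 in GRP7 and 1 each in DFD and FNR2. Over all events they made up 4.04%. The 8 are not separate exons: 6 are forms of the third exon with other ends, and 2 are forms of the cassette exon. Retained introns made up 7 in PnsB4, against 15 in GRP7, 16 in DFD and 12 in FNR2. The median absolute difference was 0.209 points in PnsB4, 2.60 in GRP7, 3.93 in DFD and 0.996 in FNR2. Marks in the authors' deposited table stand on 2 events of GRP7, 0 of DFD and 2 of FNR2. Of 177 genes with at least 10 events, 92 have no mark in that table, and 4, PnsB4 among them, have a median difference as low as PnsB4 or lower.

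Of 27 other nuclear genes for NDH subunits and for their assembly or linkage to photosystem I, 16 had events, 79 in all. The authors' deposited table marks 9 of these (11.4%), in 5 genes, against 7.46% of all events. Of the 9, 6 were higher in Ler and 3 were lower in Ler. Over all events, 3.38% are marked as higher in Ler and 4.08% as lower in Ler in the authors' deposited table. The median absolute difference was 2.25 points. The other subcomplex B genes with events were PnsB1, PnsB2 and PnsB5. The largest difference in PnsB1 was a retained intron at 72.5% in Ler and 84.4% in Col, and in PnsB2 a 3' site at 51.1% in Ler and 41.0% in Col; neither is marked in the authors' deposited table. PnsB5 had 1 mark, on a 304 bp interval listed as retained at 98.5% in Ler and 83.9% in Col. Its largest difference was unmarked, a 79 bp interval at 88.6% in Ler and listed at 0 in Col.

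Among the lumen subunits, PnsL1, a PsbP-like protein, had 19 events and 1 mark, on a 100 bp interval at 99.7% in Ler and 71.1% in Col. Its largest difference was a 3' site listed at 0 in Ler and at 97.3% in Col, with q = 2.31e-11 but no mark in the authors' deposited table. PnsL2 and PnsL4 had events and no mark. In subcomplex A, NdhL, NdhN and NdhO had events and 0 marks; the largest difference was in NdhO, with a 70 bp intron at 72.0% in Ler and 52.4% in Col. NdhU, of the ferredoxin-binding part, had no mark among 6 events.

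The remaining 7 marks fell in CRR1, CRR7 and Lhca5. CRR1 is needed for NDH accumulation, and its 84 bp intron was at 10.6% in Ler and 50.0% in Col, with 3 marks in the gene. CRR7, an assembly factor of subcomplex A, also had 3, the largest on a 441 bp interval at 48.7% in Ler and 95.2% in Col. Lhca5, a light-harvesting protein that links NDH to photosystem I, had 1, on a 261 bp intron at 35.7% in Ler and 20.3% in Col. CRR3, CRR6 and NDF5 had events without a mark.

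**Figure D5:**
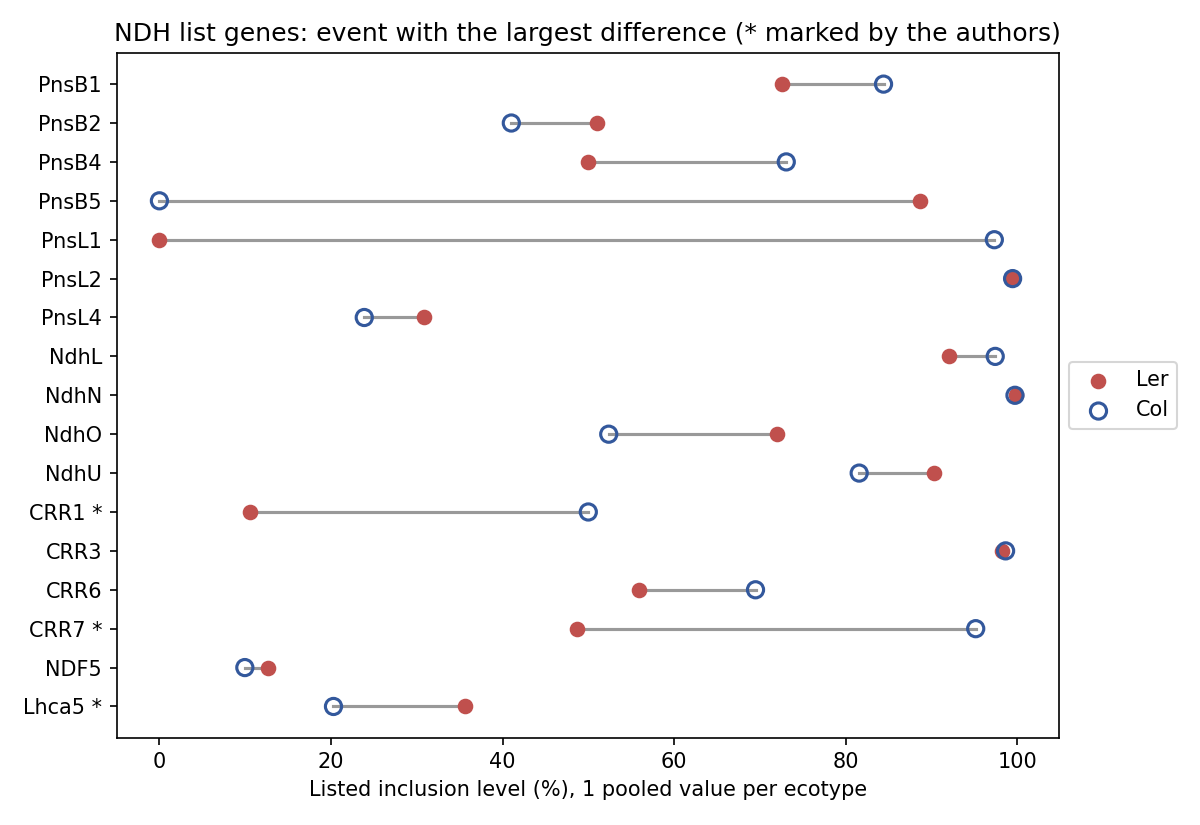
Listed inclusion level in percent of the event with the largest difference in each NDH list gene with events, for Ler (filled) and Col (open), 1 pooled value each; a star marks events the authors mark as different. PnsB4, at 50.0% in Ler and 73.1% in Col, has no star, and CRR1, CRR7 and Lhca5 have one.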

How the data were processed

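Polyadenylated RNA of Ler and Col seedlings was sequenced in 2 samples per ecotype. Reads were aligned with TopHat to TAIR10, per the submitters' processing notes; versions, strandedness, the estimator of the levels, the read minimum and the test were not in the labels. The inclusion level is a fraction from 0 to 1 that the authors deposited as 1 value per ecotype; it was multiplied to percent. The text column holds the authors' q value and a sign, per the file headers. Read depth is unknown, so no interval is given. Differences are Ler minus Col.

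Coordinates were set beside RefSeq's copy of TAIR10: 4756 of 7399 retention intervals (64.3%) matched an intron of the annotation, against 0 after a shift of 1 bp. Events were grouped where they share a splice site. At a shared site, the level divided by its complement gives the relative use of a junction pair, and these ratios were turned into shares. Reading frames were translated from the Col reference. Grouping and ratios were tested on simulated data made without sampling noise. That checks the formulas and not the accuracy of shares of rare junctions. Python 3.11.15 and pandas 2.3.3 were used.

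Every PnsB4 event is described, and each listed NDH gene by its event with the largest difference. The gene, the list and the comparisons were chosen with earlier results of these data known, so no test is made. The alternatives tried were other rules for a mark, 1 event per group, and sets without small differences, without levels of 0, or without other interval lengths. Leaving out the antisense span, a change of base junction, and averaging of inclusion junctions were chosen after seeing the data.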

Additional observations from a re-analysis of the deposited data

How the results depend on the processing

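The 29 PnsB4 events had no mark in the authors' deposited table, 0 with q under 0.05 and at least 10 points, and 1 with q under 0.05 alone. The level was higher in Ler in 6 of 7 events that differ by at least 5 points, in 2 of 3 when 1 event is kept per group of shared splice sites, and in 4 of the 11 whose interval has the same length in both genomes. The median absolute difference was 1.21 points with 1 event per group and 0.322 points with equal lengths. These sets hold fewer events, and the results with 1 event per group depend on which event is kept. Without the span of the antisense gene, a choice made after seeing the data, it was 0.175 points, and 16 of 20 events were higher in Ler. No PnsB4 level is 0, so that alternative changed nothing. The other NDH genes had 22 of 79 events (27.8%) with q under 0.05 alone, against 14.3% of all events, and 9 marked. Averaging the inclusion junctions lowered the listed level of the 67 bp exon to 0.407% in Ler and 0.509% in Col. No paired analysis was possible because the table holds 1 pooled value per ecotype, and leaving out a replicate was not run for the same reason. Read depth is not listed. The rare junctions may rest on few reads, and how far this limits their levels was not tested.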

Other observations

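The way PnsB4 exon levels are built holds in the whole table. Of 571 exon-skipping events, 570 also have a 3' site and a 5' site event against the same skipping junction, which gives 1133 levels that are neither 0 nor 100%. In all 1133 the listed level divided by its complement equalled the sum of that ratio for both inclusion junctions, within 2%, and in 0 it equalled their mean. A transcript that includes the exon crosses both junctions and one that skips it crosses 1. With the inclusion junctions averaged, a listed level of 50% becomes 33.3%. The median level of skipping events became 85.1% in Ler and 84.9% in Col, against listed medians of 92.0% in Ler and 91.8% in Col.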
